A study of Homo sapiens with 21 samples.

Results

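The comparison described here is between HCT-116 cells given extracellular vesicles (EVs) labelled HCC- at 0.24 mg/mL and the same cells given them at 0.048 mg/mL, a 5-fold step between the 2 lower doses of the study. It rests on 6 of 21 libraries, 3 for each dose, chosen by their labels alone. HCT-116 is an established line of epithelial-like cells from a human colorectal carcinoma, and EVs are membrane-bound particles that cells release and other cells can take up. Per the labels the vesicles came from the serum of HCC patients or of healthy people, had been isolated by GlyExo-Capture, and were given to cells grown with exosome-depleted serum. The source labelled HCC- is read here as the healthy serum, which no label states outright, and the labels do not say how many people gave serum, whether serum was pooled or how long the cells were exposed. The other groups compared below are HCC- EVs at 1.2 mg/mL, HCC+ EVs at 0.24 and 0.048 mg/mL, and a blank without EVs. Each has 3 libraries of poly(A) RNA. HCC+ EVs at 1.2 mg/mL, also with 3 libraries, form no comparison below. Their libraries entered the fit over all 21 libraries and the mean of all libraries.

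The 3 libraries of 0.24 mg/mL held 43.4 to 53.8 M counts (M, 1e6) and those of 0.048 mg/mL 34.1 to 48.6 M. Levels are given in CPM, the usual scaling of counts by library size, with TMM factors, and changes as log2 fold changes of 0.24 against 0.048 mg/mL ± the standard error of edgeR's quasi-likelihood fit over all 21 libraries, so that positive values mean a higher level at 0.24 mg/mL. A gene rose or fell if its Benjamini-Hochberg adjusted p in that fit was under 0.05. Whether replicate libraries stem from separate cultures is not stated in the labels, and p-values measure only the spread between these libraries, which may be technical. The epithelial keratin gene KRT8 stood at 2124 to 2799 CPM over the 6 libraries, while the intestinal markers CDX1, CEACAM5 and ASCL2 had 0 counts at both doses. So 3 of the 13 genes used to check epithelial and colon identity were without counts.

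Vesicle uptake brings protein, lipid, metal ions and RNA into a cell, and cells answer changes in such supply through a few well-known circuits. Iron regulatory proteins bind hairpins in messenger RNAs and set the uptake and storage of iron. Metallothioneins buffer zinc and copper, the SREBP system sets cholesterol synthesis, ATF4 sets amino acid synthesis and uptake, and ribosomal protein output follows growth. These circuits are taken in turn below.

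Between the doses 1704 of 19556 tested genes changed (8.71%), of which 754 rose (3.86%) and 950 fell (4.86%) at 0.24 mg/mL. The changes were small. The median size among the genes that passed was 0.31 on the log2 scale, or 1.24-fold, with quartiles of 1.20-fold and 1.29-fold. Only 38 passed with at least 1 on the log2 scale, and of these only the histone gene H3C6 averaged 1 log2 CPM or more. In 10874 of 12263 genes at that level or above (88.7%), the 95% interval of the change lay within 1.5-fold in either direction. The libraries of 1656 of the genes that passed did not overlap between doses, against 14.9% of all tested genes not overlapping with 0.24 mg/mL higher and 15.8% with it lower. Protein-coding genes made up 722 of the rises and 934 of the falls, and lncRNA genes 23 and 7.

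The number of calls moved with single libraries and with the joint removal of GC content and length trends. Without 0.24 mg/mL replicate 3, or without 0.048 mg/mL replicate 1, the fit called 2 genes, and these were CDK2AP1 and TFRC in both cases. Without 0.048 mg/mL replicate 2 it called 15, without 0.048 mg/mL replicate 3 948, without 0.24 mg/mL replicate 1 245 and without 0.24 mg/mL replicate 2 3124. When trends of each library along GC content and gene length were removed, 107 genes passed, 34 rising and 73 falling, and 69 of them were among the 1704. CDK2AP1 and TFRC were the only genes called in all 6 fits without 1 library and under every other alternative. Scaling to the total count alone gave 1265 rises and 657 falls, so the split between directions also moved with the scaling.

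**Figure D1:**
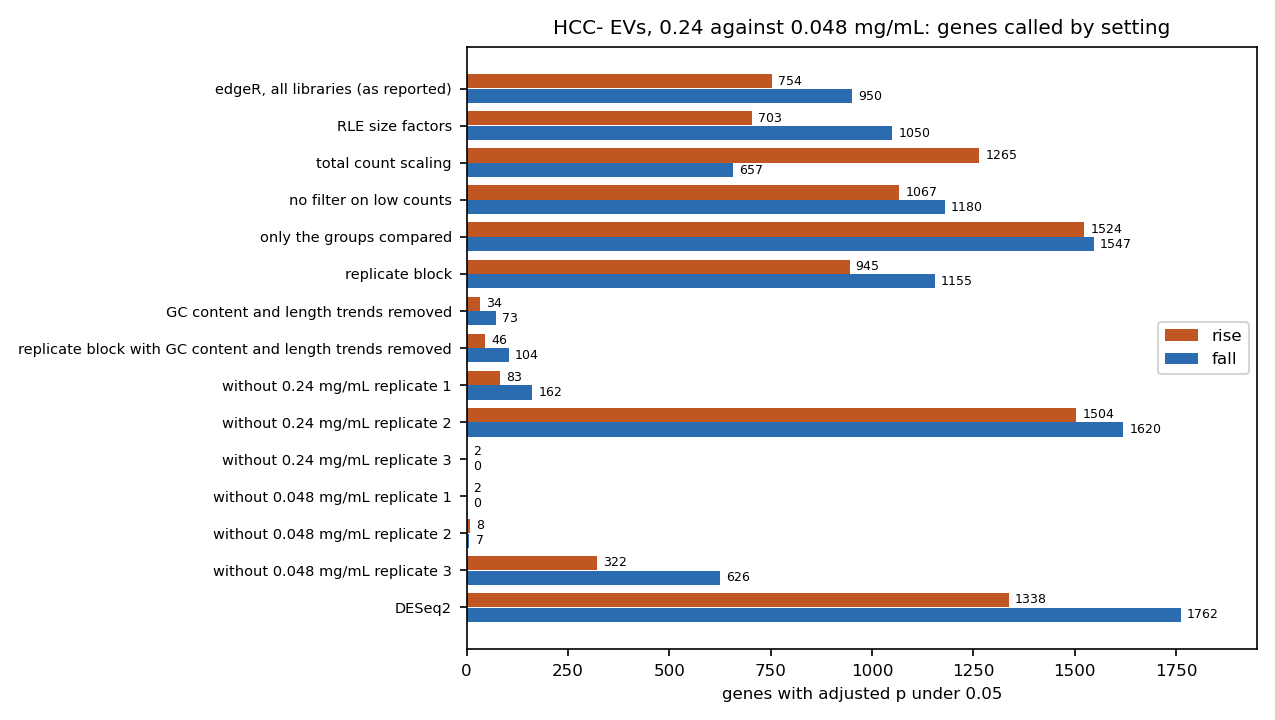
Genes with adjusted p under 0.05 for HCC- EVs at 0.24 against 0.048 mg/mL (horizontal axis), rises and falls as separate bars, for the reported fit and each alternative (vertical axis). The reported fit shows 754 rises and 950 falls, and the fits without 0.24 mg/mL replicate 3 or 0.048 mg/mL replicate 1 show 2 rises and 0 falls.

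CDK2AP1, which encodes a binding partner of the kinase CDK2 and a member of chromatin complexes, had the smallest p of all genes (ENSG00000111328, GRCh38, chromosome 12, positions 123250112 to 123272334, minus strand). Its level was 184, 192 and 195 CPM in the 3 libraries at 0.24 mg/mL and 126, 128 and 137 CPM at 0.048 mg/mL, a gap wider than the range within either dose. The log2 fold change was 0.54 ± 0.07, or 1.46-fold, with a 95% interval of 0.40 to 0.68 and an adjusted p of 0.000127 in edgeR's quasi-likelihood test. With GC content and length trends removed the value was 0.54 as well. Blank libraries were at 196, 151 and 172 CPM, above the lower dose and reaching the level of the higher one, and HCC- EVs at 1.2 mg/mL were above both at 221 to 241 CPM. In cells given HCC+ EVs the gene was at 173 to 192 CPM at 0.24 mg/mL and 178 to 187 CPM at 0.048 mg/mL, groups that overlapped.

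TFRC, the transferrin receptor that brings iron into the cell, rose as well (ENSG00000072274, GRCh38, chromosome 3, positions 196027183 to 196082096, minus strand). Its libraries were at 437, 427 and 458 CPM with 0.24 mg/mL and at 312, 317 and 325 CPM with 0.048 mg/mL. The 2 doses did not overlap, and the change was 0.47 ± 0.07, or 1.39-fold (interval 0.33 to 0.61, adjusted p = 0.00135 by edgeR). With the trends removed it was 0.31. Blank libraries spread from 313 to 411 CPM, a range that reaches from the level of the lower dose nearly to that of the higher one. With HCC+ EVs TFRC was at 505 to 574 CPM at 0.24 mg/mL and 461 to 486 CPM at 0.048 mg/mL, a difference of 0.17 with an interval of 0.03 to 0.31 that did not pass after adjustment.

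TFRC belongs to a circuit in which iron regulatory proteins bind a hairpin called the iron-responsive element. Bound in the 3' UTR of TFRC the proteins protect the message, and bound in the 5' UTR of the ferritin messages FTH1 and FTL they block translation. The elements are shown because the members of this circuit that passed the test carry them or bind them. They were read from the GENCODE v29 transcripts (GRCh38) with a pattern of a C, 5 bases that pair with 5 bases after the loop (G-T pairs allowed), and a 6-base loop CAGTGN, on the transcript strand. Of 19500 tested genes with a transcript, 276 (1.42%) held a match, and so did 4 of 10 iron genes, with 4 matches in TFRC and 1 each in FTH1, FTL and the iron exporter gene SLC40A1. Each line gives 27 bases, 5′ to 3′, with the loop in capitals.
TFRC 3' UTR, element 1, chr3:196050980-196051006, minus strand: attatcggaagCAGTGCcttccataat
TFRC 3' UTR, element 2, chr3:196050576-196050602, minus strand: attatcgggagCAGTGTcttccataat
TFRC 3' UTR, element 3, chr3:196050511-196050537, minus strand: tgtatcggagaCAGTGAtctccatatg
TFRC 3' UTR, element 4, chr3:196050464-196050490, minus strand: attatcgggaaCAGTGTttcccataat
FTH1 5' UTR, chr11:61967575-61967601, minus strand: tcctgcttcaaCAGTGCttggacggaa
FTL 5' UTR, chr19:48965336-48965362, plus strand: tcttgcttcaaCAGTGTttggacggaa
A match describes letters and pairing in the transcript and does not show that a protein was bound in these cells.

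Of the 10 iron genes 2 rose and 2 fell, beside 3.86% and 4.86% of all genes. The median change was -0.01 beside 0.01 over all genes. IREB2, which encodes 1 of the proteins that bind these hairpins, rose by 0.27 ± 0.07 from 85.9 to 93.8 CPM at 0.048 mg/mL to 104 to 111 CPM at 0.24 mg/mL. FTH1, the ferritin heavy chain that stores iron, was at 500, 496 and 507 CPM at 0.24 mg/mL and 649, 636 and 651 CPM at 0.048 mg/mL and fell by 0.36 ± 0.10. FTL, the light chain, fell by 0.18 ± 0.06, from 1494 to 1708 CPM to 1372 to 1484 CPM. For IREB2, FTH1 and FTL the libraries did not overlap between the doses. Blank libraries of FTH1 spread from 441 to 709 CPM, beyond both doses. The exporter SLC40A1 was at 0.38 ± 0.30 and did not pass. Reads of ferritin genes can also fit their processed copies elsewhere in the genome, and how the authors treated such reads is not given in the sources used here. Without 0.24 mg/mL replicate 3 or 0.048 mg/mL replicate 1 or 2, TFRC was the only iron gene that passed, as it was with GC content and length trends removed. FTH1 passed in 0 of the 6 fits without 1 library. Its value with the trends removed was -0.31, while FTL was at -0.01 and IREB2 at 0.05. FTL did not pass when counts were scaled to the total alone.

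The metallothionein genes MT2A and MT1E fell, 2 of the 6 tested genes of the zinc response list, beside 4.86% of all genes. The median of the list was -0.41. MT2A was at 268, 271 and 194 CPM with 0.24 mg/mL and at 464, 441 and 322 CPM with 0.048 mg/mL. The third library of each dose was the lowest of its group, and the doses did not overlap. The change was -0.74 ± 0.18, or 1.67-fold, and that of MT1E was -0.58 ± 0.15. With HCC+ EVs the same step gave 0.23 and 0.22, neither of which passed. Against the blank both genes fell at 1.2 mg/mL of HCC- EVs, by 1.57 and 1.60 on the log2 scale. With the trends removed MT2A was at -0.61 and MT1E at -0.45 and neither passed, and neither passed in the fit of the groups compared alone or without 0.24 mg/mL replicate 1 or 3 or 0.048 mg/mL replicate 1 or 2.

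**Figure D2:**
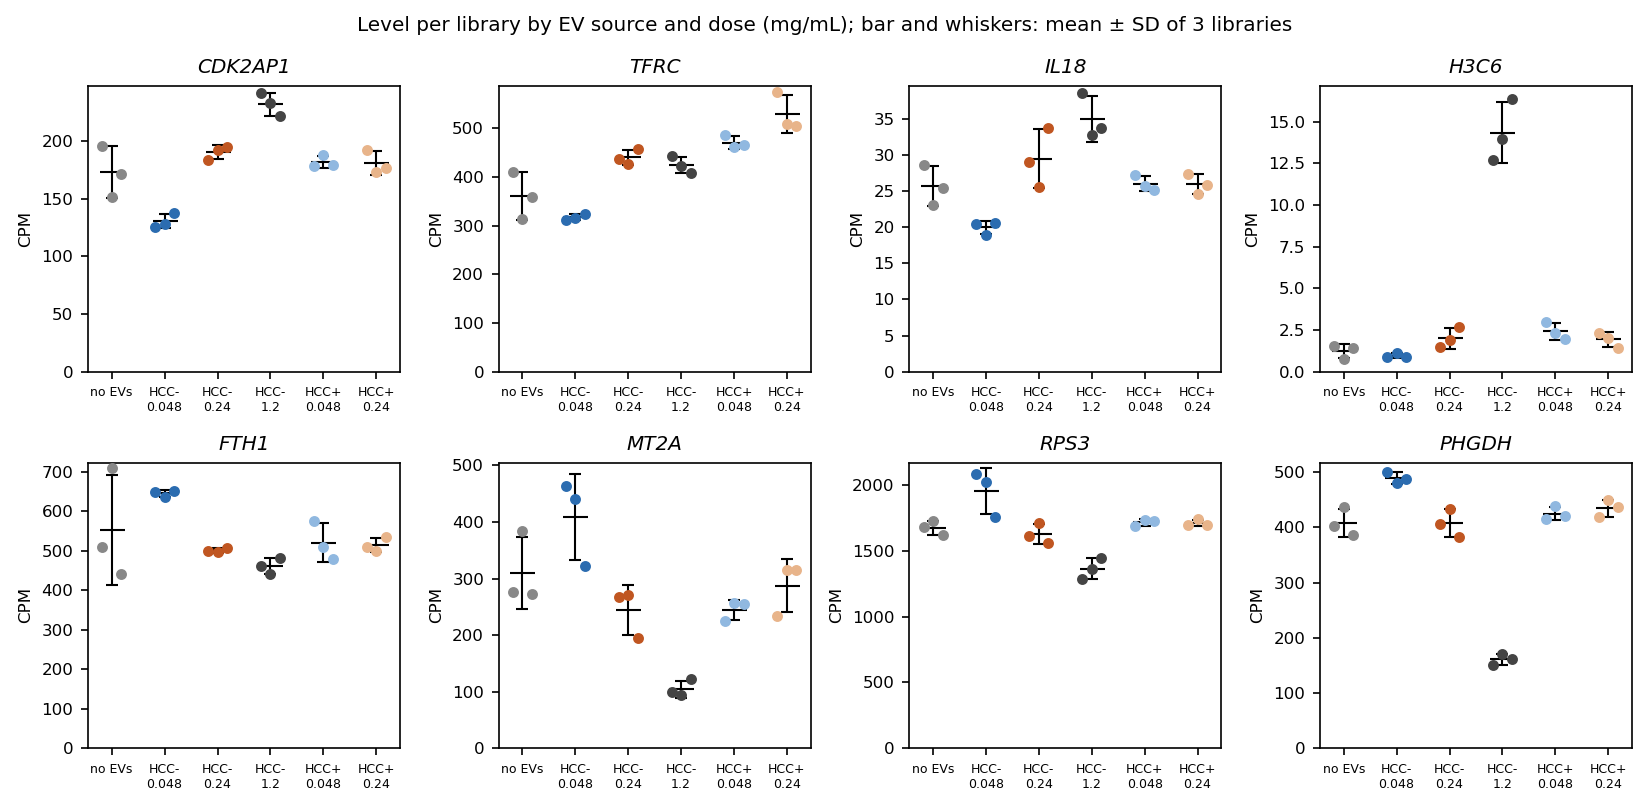
Level in CPM (vertical axes, from 0) of 8 genes in each library of 6 groups (horizontal axes, EV source and dose in mg/mL), with mean and SD of 3 libraries. For CDK2AP1 the 3 libraries of HCC- EVs at 0.24 mg/mL, 184 to 195 CPM, sit above those at 0.048 mg/mL, 126 to 137 CPM, and within the span of the blank and HCC+ libraries, 151 to 196 CPM.

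The list of cytosolic ribosomal proteins held the most called genes. Of its 28 tested members 13 fell and 0 rose (background 4.86% and 3.86%), with a median of -0.19. RPS3, a protein of the small subunit that also acts in DNA repair, was at 1610, 1709 and 1562 CPM with 0.24 mg/mL and at 2081, 2026 and 1757 CPM with 0.048 mg/mL, a change of -0.26 ± 0.06 (ENSG00000149273, chromosome 11, positions 75399515 to 75422280). RPS2 changed by -0.28 ± 0.06. At the other end RPL5 was at 0.06 ± 0.05 and did not pass.

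All ribosomal protein genes found by symbol form a family taken after the values of its list were seen. Of 83 tested, 36 fell and 1 rose, and the median was -0.18. The median transcript GC content of the family was 47.9%, beside 48.4% over the genes with at least 1 log2 CPM. Its genes were shorter, with a median length of 3002 bases beside 5200 over the same genes. In the decile of shortest genes the median change was -0.12. With GC content and length trends removed 10 of 83 fell and 0 rose, and the median was -0.14, while over all protein-coding genes 71 of 14344 fell. Adding the replicate block to trend removal gave 16 falls and 1 rise. RPS3 then stood at -0.34 and RPS14 at -0.27. Without 0.24 mg/mL replicate 3 or 0.048 mg/mL replicate 1 or 2 no gene of the family passed, with medians of -0.16, -0.13 and -0.15. Without 0.24 mg/mL replicate 1 19 fell, and without 0.048 mg/mL replicate 3 45 fell. Reads of ribosomal protein genes can fit near-identical pseudogenes, so single values of the family are uncertain.

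Nuclear genes of oxidative phosphorylation encode the respiratory complexes and ATP synthase of mitochondria. Of 21 listed members 5 fell and 0 rose (background 4.86% and 3.86%), with a median of -0.07. COX4I1 of complex IV was at 407, 424 and 387 CPM with 0.24 mg/mL and 494, 496 and 438 CPM with 0.048 mg/mL, a change of -0.23 ± 0.06. NDUFV1 of complex I changed by -0.32 ± 0.08 and UQCRC1 of complex III by -0.22 ± 0.06. Of 79 subunit genes found by symbol, again after values were seen, 25 fell and 0 rose, with a median of -0.12. With GC content and length trends removed 9 of the 79 fell, including COX7A2 and COX7B, which did not pass as reported, and the median was -0.11. Among these were COX4I1 (-0.25), NDUFB1 (-0.62) and NDUFB2 (-0.32), the latter 2 of complex I. Over all protein-coding genes 71 of 14344 fell with the trends removed. None of the 79 passed without 0.24 mg/mL replicate 3 or 0.048 mg/mL replicate 1 or 2, and 8 fell without 0.24 mg/mL replicate 1. The 13 messages encoded in the mitochondrial genome had 0 rises and 0 falls and a median of 0.03.

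Genes that build ribosomes in the nucleolus fell in 5 of 18 listed members, and 0 rose (background 4.86% and 3.86%). Their median was -0.03. RRP9, a protein of small nucleolar RNA particles, changed by -0.33 ± 0.07. Of 18 listed mitochondrial ribosomal protein genes 1 rose and 1 fell, with a median of 0.009. Of 77 found by symbol, again after values were seen, 11 fell and 1 rose (median -0.04). Scaled to the total count, 6 fell and 3 rose. Of 18 nucleolar genes 0, and of 77 mitochondrial ribosomal genes 3, passed with the trends removed, the latter including MRPL52 at -0.34. These 3 fell, beside 71 of 14344 protein-coding genes. No member of either group passed without 0.24 mg/mL replicate 3 or 0.048 mg/mL replicate 1 or 2.

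ATF4 is the factor that answers amino acid shortage and stress of the endoplasmic reticulum. Of 18 listed targets 6 fell and 0 rose (background 4.86% and 3.86%), with a median of -0.25. PCK2, which makes phosphoenolpyruvate in mitochondria, was at 110, 113 and 85.0 CPM with 0.24 mg/mL and 145, 139 and 125 CPM with 0.048 mg/mL, a change of -0.41 ± 0.09. ASNS, which makes asparagine, was at 6.99 to 9.36 CPM against 9.97 to 11.6 CPM and changed by -0.41 ± 0.13. TRIB3, a pseudokinase that restrains ATF4, changed by -0.38 ± 0.10, and CHAC1, which degrades glutathione, by -0.59 ± 0.18. DDIT3, which encodes the stress factor CHOP, was at -0.60 ± 0.21 and did not pass. The fall of CHAC1 was lost with the replicate number as a block (adjusted p = 0.0643 in edgeR's test) and that of ASNS when scaled to the total count. With trends removed 0 of 18 passed, and the median was -0.10. ASNS was then at -0.45 and DDIT3 at -0.55, near their reported values, while PCK2 was at -0.21, TRIB3 at -0.18 and CHAC1 at -0.36. None passed without 0.24 mg/mL replicate 3 or 0.048 mg/mL replicate 1 or 2, and 1 passed without 0.24 mg/mL replicate 1. ASNS passed in 0 of the 6 fits without 1 library.

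Serine synthesis and folate enzymes fell in 2 of 12 and rose in 0 (background 4.86% and 3.86%), with a median of -0.04. PHGDH, which starts serine synthesis from glucose, was at 406, 433 and 383 CPM with 0.24 mg/mL and 500, 479 and 488 CPM with 0.048 mg/mL. It changed by -0.26 ± 0.06, and by -0.20 with the trends removed, where it still passed. SHMT2, which passes a carbon unit from serine to folate in mitochondria, changed by -0.18 ± 0.06 and did not pass with the trends removed, with no filter on low counts or scaled to the total count. Neither enzyme passed without 0.24 mg/mL replicate 3 or 0.048 mg/mL replicate 1 or 2.

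Plasma membrane amino acid transporters split into 3 rises and 3 falls among 12 (background 3.86% and 4.86%). The paired subunits SLC3A2 and SLC7A5, which import large neutral amino acids in exchange for glutamine, changed by -0.27 ± 0.07 and -0.29 ± 0.07, and the glutamine importer SLC1A5 by -0.24 ± 0.07. The sodium-coupled transporters of small neutral amino acids SLC38A1 and SLC38A2 rose by 0.23 ± 0.07 and 0.41 ± 0.12. SLC38A2 was at 1098, 999 and 1309 CPM with 0.24 mg/mL and 855, 816 and 897 CPM with 0.048 mg/mL. The third riser was SLC36A4 (0.34). SLC38A2 did not pass with no filter on low counts. The direction followed the base composition of the transcripts. GC content was at least 57.4% in the 3 that fell and at most 41.3% in the 3 that rose, and with the trends removed 0 of 12 passed. None passed without 0.24 mg/mL replicate 1 or 3 or 0.048 mg/mL replicate 1 or 2.

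Among 24 genes of the cholesterol pathway 7 rose and 2 fell (background 3.86% and 4.86%), and the median was 0.01. IDI1, which makes the isoprenoid building block dimethylallyl diphosphate, was at 156, 147 and 166 CPM with 0.24 mg/mL and 122, 129 and 111 CPM with 0.048 mg/mL and rose by 0.37 ± 0.08. SC5D, a late enzyme of the pathway, rose by 0.44 ± 0.10, and STARD4, which carries sterol between membranes, by 0.42 ± 0.10. TM7SF2, a sterol reductase, fell by 0.36 ± 0.09. Trend removal left 0 of 24, with a median of 0.09. Without 0.24 mg/mL replicate 3 or 0.048 mg/mL replicate 1 or 2 none passed, without 0.24 mg/mL replicate 1 3 rose, and without 0.048 mg/mL replicate 3 2 rose and 1 fell. In the fatty acid lists, ACSL1, which activates fatty acids, rose by 0.32 ± 0.08 and the lipogenic factor SREBF1 fell by 0.30 ± 0.08, and neither passed with the trends removed.

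The 2 called genes of the replication-dependent histone list rose, among 12 tested (background 3.86%), and the median of the list was 0.12. H3C6 was at 1.47, 1.91 and 2.71 CPM with 0.24 mg/mL and 0.879, 1.13 and 0.907 CPM with 0.048 mg/mL, a change of 1.06 ± 0.25, or 2.08-fold. H2AC6 was at 5.35, 6.15 and 6.91 CPM against 3.89, 2.77 and 3.48 CPM and rose by 0.87 ± 0.18. In a poly(A) library these levels count only polyadenylated histone messages, since the main form of these messages ends in a stem-loop. At 1.2 mg/mL of HCC- EVs the 2 genes stood 3.53 and 2.75 above the blank on the log2 scale. With HCC+ EVs the step gave -0.34 and -0.43, neither of which passed. With the trends removed H3C6 passed (0.98) and H2AC6 did not (0.76), while with the replicate block as well both passed, H2AC6 at 0.78 (adjusted p = 0.0337 in edgeR's test). Neither passed without 0.24 mg/mL replicate 3 or 0.048 mg/mL replicate 1 or 2.

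DNA replication genes fell in 6 of 20 and rose in 0 (background 4.86% and 3.86%), although the median of the list was -0.01. CDT1, which loads the MCM helicase onto origins, was at 134, 142 and 113 CPM with 0.24 mg/mL and 179, 173 and 169 CPM with 0.048 mg/mL, a change of -0.42 ± 0.08. TK1, a thymidine kinase, changed by -0.28 ± 0.07, the ligase LIG1 by -0.33 ± 0.09 and MCM5 by -0.25 ± 0.07. In the mitosis list CDC20, an activator of the anaphase promoting complex, fell by 0.27 ± 0.07 and TOP2A, which untangles DNA, rose by 0.30 ± 0.09, with a median of 0.11 over 19 genes. Among G1 regulators CDK4 fell by 0.25 ± 0.06, and CDK6 and RB1 rose by 0.29 ± 0.09 and 0.31 ± 0.09. CDK6 was not called with RLE size factors. The falls had GC-rich and the rises GC-poor transcripts, from 53.6% for CDK4 to 64.9% for CDT1 and from 37.3% for RB1 to 39.5% for CDK6. None of these genes passed with the trends removed, and none of the replication list passed without 0.24 mg/mL replicate 3 or 0.048 mg/mL replicate 1 or 2.

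The p53 targets split into 2 rises and 3 falls among 19 (background 3.86% and 4.86%), with a median of -0.10. FDXR, an electron donor for steroid synthesis in mitochondria, was at 58.8, 61.7 and 56.4 CPM with 0.24 mg/mL and 79.8, 76.2 and 77.6 CPM with 0.048 mg/mL, a change of -0.40 ± 0.07. GDF15, a secreted stress factor, changed by -0.39 ± 0.12 and the cell death gene BAX by -0.25 ± 0.07. TP53INP1, which promotes autophagy and cell death, rose by 0.50 ± 0.14. GDF15 did not pass when scaled to the total count, where 3 rose and 2 fell. Trend removal left 0 of 19. Without 0.24 mg/mL replicate 3 or 0.048 mg/mL replicate 1 none passed, and without 0.048 mg/mL replicate 2 FDXR did.

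Some antigen presentation and keratin genes fell, beside 4.86% falls and 3.86% rises over all genes. In the antigen presentation list HLA-B fell by 0.28 ± 0.07, with overlapping libraries, and HLA-C by 0.29 ± 0.07. Reads of these genes can fit more than 1 of them, so their split is uncertain. Of the 10 tested epithelial genes KRT8 and KRT19 fell, by 0.24 ± 0.07 and 0.37 ± 0.11. Of 21 interferon response genes ISG15, a ubiquitin-like protein, fell by 0.37 ± 0.07 and no other passed. The immediate early genes IER2 (-0.42 ± 0.10), MYC (-0.20 ± 0.06) and FOSL1 (-0.34 ± 0.11) fell among 16, and MYC did not pass when scaled to the total count. Of 15 genes of vesicle formation and uptake RAB27B, which docks vesicles for release, and SDCBP, the adaptor syntenin, rose by 0.69 ± 0.20 and 0.33 ± 0.07. RAB27B overlapped between the doses, at 2.69 to 5.00 CPM against 2.35 to 2.96 CPM. None of the genes of this paragraph passed with the trends removed or without 0.24 mg/mL replicate 3 or 0.048 mg/mL replicate 1.

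Protein folding genes were called in both directions, beside 3.86% rises and 4.86% falls over all genes. Of 12 cytosolic heat shock genes 1 rose and 2 fell, among them the small heat shock protein HSPB1 (-0.38 ± 0.08). Of 18 genes of the endoplasmic reticulum DNAJC3, a co-chaperone, rose by 0.36 ± 0.08 and SDF2L1, a partner of the chaperone BiP, fell by 0.45 ± 0.10. NFAT5, the factor of the response to high salt, rose by 0.32 ± 0.09 and was the only one of 8 osmolyte genes that passed. GAPDH, an enzyme of glycolysis, changed by -0.26 ± 0.08 with overlapping libraries and was the only one of 20 glycolysis and hypoxia genes that passed. HSPB1, DNAJC3, SDF2L1, NFAT5 and GAPDH did not pass with the trends removed, nor without 0.24 mg/mL replicate 3 or 0.048 mg/mL replicate 1 or 2. No gene passed among 16 of lysosome and autophagy and 13 of the NF-kB list, and 16 of all 50 lists held no called gene.

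**Figure D3:**
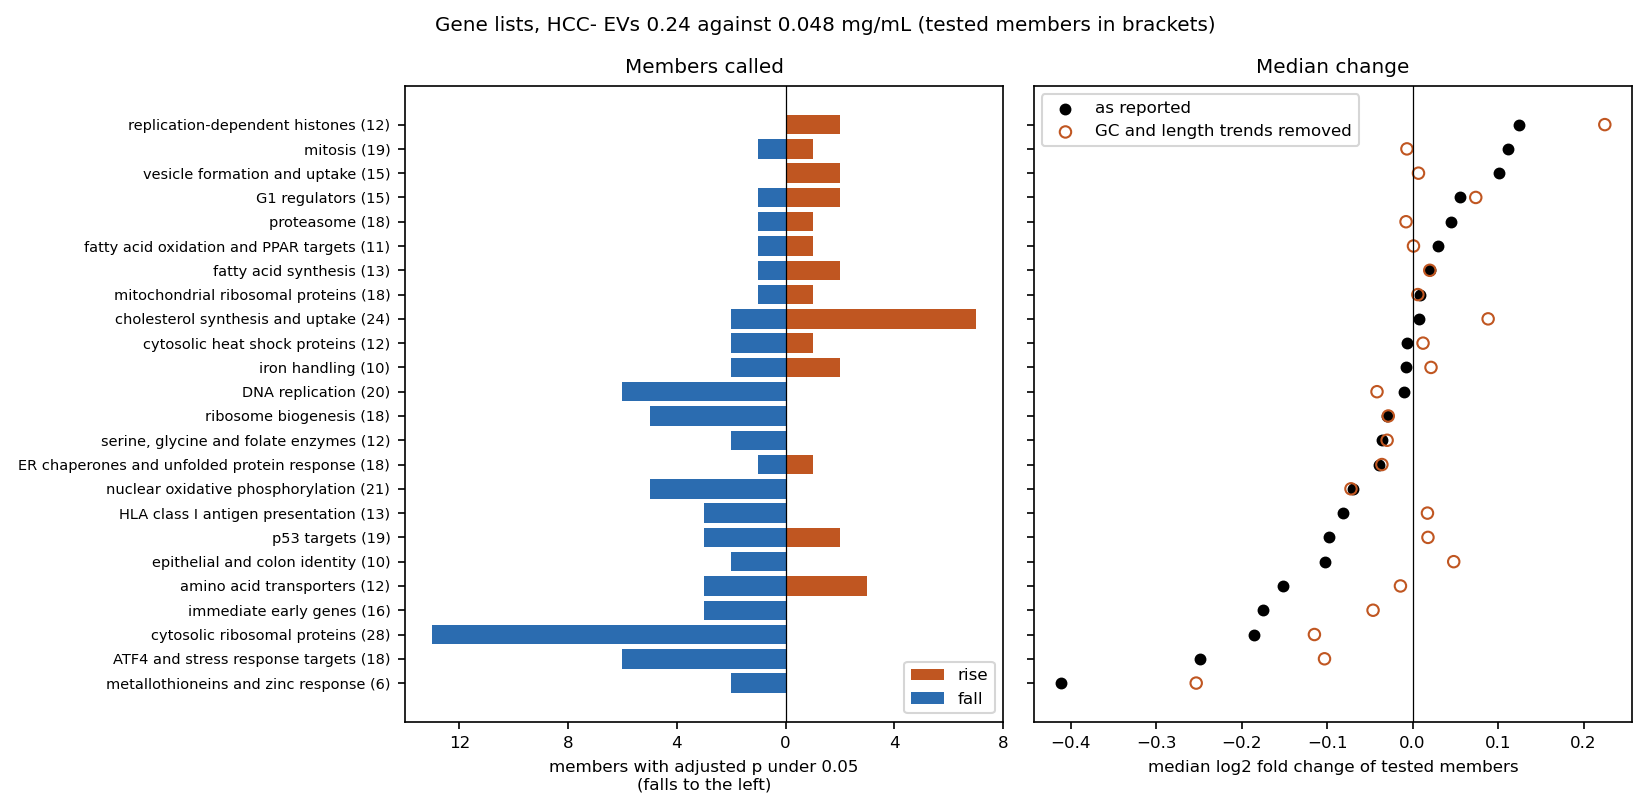
Gene lists with at least 2 called members (vertical axis, tested members in brackets). Left, members that rose or fell (horizontal axis, number of genes, falls to the left), led by 13 falls of cytosolic ribosomal proteins. Right, median log2 fold change of the tested members as reported and with GC content and length trends removed, where the median of the ribosomal list moves from -0.19 to -0.11.

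Beyond the lists, IL18, a cytokine of epithelial cells, rose too. It was at 29.1, 25.6 and 33.8 CPM with 0.24 mg/mL and 20.4, 18.9 and 20.6 CPM with 0.048 mg/mL, a change of 0.56 ± 0.09, or 1.48-fold, that passed in 4 of the 6 fits without 1 library and with the trends removed (0.38). The 2 fits without a call were those without 0.24 mg/mL replicate 3 and 0.048 mg/mL replicate 1. Where libraries did not overlap and the gene averaged 1 log2 CPM or more, the largest rises after H3C6 were those of SLCO1B3, an uptake transporter of bile acids (0.97 ± 0.29), BCO2, which cleaves carotenoids (0.94 ± 0.22), H2AC6 and LACC1 (0.81 ± 0.22). SLCO1B3 was at 2.52 to 3.55 CPM against 1.3 to 1.72 CPM. The largest falls were those of TMEM74B (-0.76 ± 0.20), MT2A, and CHRNB4, a subunit of acetylcholine receptors (-0.72 ± 0.20). CLEC11A, a secreted growth factor, and IGFBP6, which binds insulin-like growth factors, changed by -0.63 ± 0.15 and -0.61 ± 0.12. IL18 and H3C6 passed with the trends removed, and SLCO1B3, BCO2, H2AC6, LACC1, TMEM74B, MT2A, CHRNB4, CLEC11A and IGFBP6 did not. None of these 11 genes passed without 0.24 mg/mL replicate 3 or 0.048 mg/mL replicate 1.

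The change of a gene followed the GC content of its transcript. Over 12251 genes the log2 fold change correlated with GC content at Pearson r = -0.75 (Spearman rho = -0.78) and with log2 gene length at r = 0.24. These values are a description across genes, which share the 6 libraries and are not independent replicates. In the decile of genes with the lowest GC content the median change was 0.26, with 311 rises and 1 fall, and in the decile with the highest it was -0.25, with 1 rise and 349 falls. The median GC content was 39.2% for genes that rose and 60.2% for genes that fell. The level of GC-rich relative to GC-poor genes, on the log2 scale and relative to the mean of all libraries, was 0.27, 0.35 and 0.34 in the libraries at 0.048 mg/mL and -0.23, 0.09 and -0.36 at 0.24 mg/mL. Blank libraries spread from -0.51 to 0.13. For HCC+ EVs the same step correlated with GC content at r = 0.11. With the trends removed the SD of the change over the same 12251 genes fell from 0.209 to 0.136. The part of base composition, or of how the libraries were made, in the calls was not tested.

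**Figure D4:**
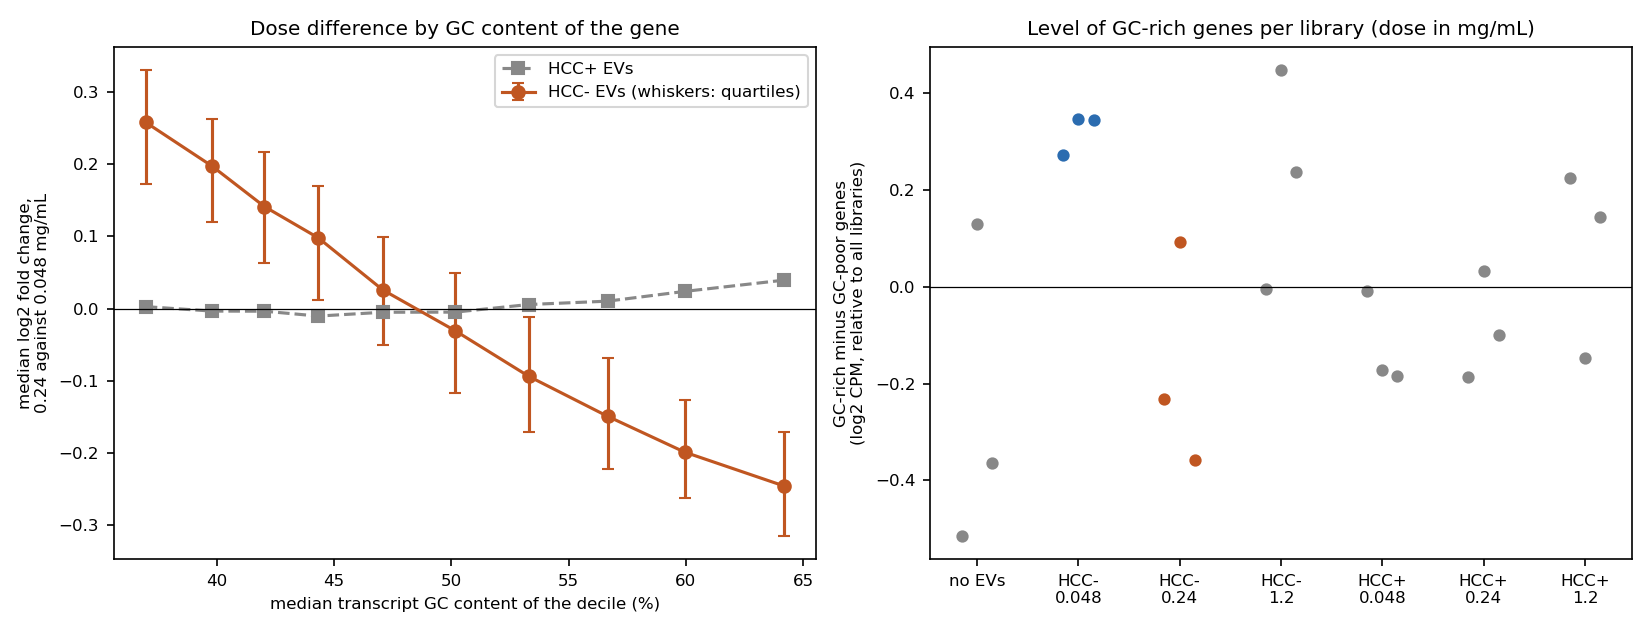
Left, median log2 fold change of 0.24 against 0.048 mg/mL (vertical axis) by decile of transcript GC content (horizontal axis, %), with quartiles for HCC- EVs and medians alone for HCC+ EVs. The HCC- medians go from 0.26 to -0.25. Right, level of GC-rich minus GC-poor genes in each library (vertical axis, log2) by group (horizontal axis, EV source and dose in mg/mL), where HCC- EVs at 0.048 mg/mL lie at 0.27 to 0.35.

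For HCC+ EVs the step from 0.048 to 0.24 mg/mL gave 0 called genes in edgeR's test and 0 in DESeq2, with 523 genes at an unadjusted p under 0.05. The direct test of whether the dose step differed between the sources also called 0 genes by edgeR, with 3404 at an unadjusted p under 0.05, while DESeq2 called 388. The smallest adjusted p of that test was 0.0591 for CDK2AP1, whose step differed by 0.55 ± 0.10 between the sources. TFRC differed by 0.30 ± 0.10 (adjusted p = 0.148), IL18 by 0.57 ± 0.13 (adjusted p = 0.135) and H2AC6 by 1.29 ± 0.25 (adjusted p = 0.135). Toward a lower value with HCC-, the smallest p belonged to ISG15 (-0.37 with HCC- and 0.12 with HCC+) and to ARFRP1, a small GTPase of the Golgi (-0.42 and 0.22). With the replicate block 2 genes passed the test of the difference, and without HCC- 0.24 mg/mL replicate 2 298 did. The 2 sources share no library in this step. Of the 754 rises 48.3% and of the 950 falls 34.3% had the same sign with HCC+, where 50.4% of all genes were above and 49.6% below 0.

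Set beside the blank, the 2 doses of HCC- EVs differed in how far they stood from it. The higher dose, 0.24 mg/mL, had 0 called genes by edgeR and 0 by DESeq2 (905 at an unadjusted p under 0.05), and the lower one, 0.048 mg/mL, had 1620 rises (8.28%) and 1596 falls (8.16%), 16.4% of genes in all. That count rested on the blank libraries too: 1 gene was called without blank replicate 1, 12 without blank replicate 3 and 5726 without blank replicate 2. With the trends removed 104 genes differed from the blank at 0.048 mg/mL. CDK2AP1 was at 0.14 ± 0.07 for 0.24 mg/mL and -0.41 ± 0.07 for 0.048 mg/mL, each against the blank. TFRC was at 0.29 ± 0.07 and -0.18 ± 0.07, of which neither passed. PHGDH was at -0.00 ± 0.06 and 0.26 ± 0.06, RPS3 at -0.04 ± 0.06 and 0.22 ± 0.06, and FTH1 at -0.14 ± 0.10 and 0.22 ± 0.10. These pairs share the blank libraries with each other and each shares a dose group with the comparison above, so they only place its values.

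At 1.2 mg/mL HCC- EVs gave 10418 called genes against the blank (53.3%), 4844 higher (24.8%) and 5574 lower (28.5%), in libraries that the step between the lower doses does not use. Of the 754 genes that rose in that step 34.0% were above the blank at 1.2 mg/mL, where 53% of all genes were, and of the 950 that fell 75.8% were below it, where 47% of all genes were. Scaled to the total count the same comparison had 8128 higher and 3097 lower calls, so these shares hold for TMM scaling. The changes themselves had a Pearson r of -0.03 over the genes with at least 1 log2 CPM. CDK2AP1 (0.42 ± 0.07), TFRC (0.23 ± 0.07) and IL18 (0.45 ± 0.09) rose at 1.2 mg/mL as in the step. RPS3 (-0.29 ± 0.06), PHGDH (-1.34 ± 0.06), PCK2 (-2.20) and FTL (-0.51 ± 0.06) fell in both. SLC38A1 (-0.70), IDI1 (-0.69) and TOP2A (-1.19) rose in the step and fell at 1.2 mg/mL.

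No marker of another cell type passed the test between the doses. The summed level of 10 leukocyte markers was 1.34 to 2.70 CPM at 0.24 mg/mL and 1.26 to 2.46 CPM at 0.048 mg/mL, and that of 6 erythroid markers 0.138 to 0.412 and 0.206 to 0.440 CPM. The 5 endothelial markers summed to 1.40 to 1.65 and 0.843 to 1.97 CPM, the 6 fibroblast markers to 14.9 to 16.1 and 16.1 to 20.4 CPM and the 8 hepatocyte markers to 2.61 to 3.86 and 2.67 to 3.06 CPM. The 7 platelet markers gave 22.8 to 27.6 CPM at 0.24 mg/mL and 28.2 to 30.7 CPM at 0.048 mg/mL, with PPBP, PF4 and GP9, which define platelets, at 0. The leukocyte markers S100A8 and S100A9 were at 0 in both groups, where a count of 0 allows up to 3 counts. In bulk RNA fewer cells of a kind and less RNA per cell cannot be told apart. The nuclear RNAs and signs of RNA quality, NEAT1 among them, summed to 273 to 290 CPM at 0.24 mg/mL and 212 to 278 CPM at 0.048 mg/mL, and 0 of 3 tested passed. Their part in the results was not tested.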

How the data were processed

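Members and gene lists were chosen with earlier results of these data known. The values analysed are the authors' deposited counts, whole numbers not normalized, for 65065 Ensembl genes. Per the submitters' processing notes the authors used cutadapt 3.4, HISAT2 2.2.1 and featureCounts 2.0.1 on GRCh38. Not given in the sources used here are the annotation release, the strand setting and the treatment of multimapping reads. Symbols were found for 17160 of 19556 tested genes.

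Counts of all 21 libraries entered 1 model of 7 group means in edgeR 4.0.16 (R 4.3.3) with robust quasi-likelihood fits, TMM factors, the filterByExpr filter, 2-sided F tests and 14 residual degrees of freedom. The common biological coefficient of variation was 8.85%. Tested genes held 99.96% of counts. GC content came from the longest GENCODE v29 transcript, known for 99.7% of tested genes. Length was the gene length in bases given with the deposited counts. For trend removal, natural splines with 4 degrees of freedom over 12251 genes gave offsets per library. Lists are described by counts and medians without a test.

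Same-numbered libraries of the 2 doses had residual correlations of 0.14 to 0.23, so by a rule set on these correlations the replicate numbers were taken to pair them. This comes from the data and not from the labels. Between all groups, 20 of 63 same-numbered pairs had a correlation over 0.1. Others were negative, the lowest at -0.45 between replicate 2 of HCC+ EVs at 1.2 mg/mL and of the blank, so the pairing did not hold across all groups. The reported fit held no term for the pairing, which entered only as the replicate block among the alternatives. No libraries agreed within sampling noise (lowest chi-square per degree of freedom 4.55). The method was tested on counts simulated for this comparison over 18807 genes. Changes were planted in 50 genes per fold, drawn only from genes with high counts. Of these, 94.0% of genes changed by 1.5-fold and 62.0% of those changed by 1.3-fold were recovered. Of 195 calls 17 were false. Simulated counts carried no GC trend and no other shift shared by the genes of a library.

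Named genes were up to 15 rises and 15 falls with the largest change among called genes with at least 1 mean log2 CPM and no overlap, called and extreme members of each list, called markers and the genes of smallest p for the difference between sources. SLC40A1, SLC36A4, RPS14, NDUFB1, NDUFB2, COX7A2, COX7B and MRPL52 and the genes under other observations were chosen after their values were seen. Alternatives were RLE factors, total-count scaling, no filter, DESeq2 1.42.0, only the groups compared, the replicate block, trend removal, both together and each library left out. Trend removal with a library left out was added after seeing the data. Python 3.11.15 and matplotlib 3.10.9 made the plots. Some items are not reported here.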

Additional observations from a re-analysis of the deposited data

How the results depend on the processing

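For HCC- EVs at 0.24 against 0.048 mg/mL the 1704 calls became 3071 in a fit of the groups compared alone, 3100 in DESeq2, 107 with GC content and length trends removed and 150 with those trends removed and the replicate block. Leaving out 1 library gave 2 to 3124. The replicate block alone gave 2100 calls, of which 1699 were among the 1704. It changed the call of CHAC1 among the named genes and of no other. With trends removed and 1 library left out, a fit added after seeing the data, 72, 152 and 4 genes were called without 0.24 mg/mL replicate 1, 2 or 3, and 6, 16 and 358 without 0.048 mg/mL replicate 1, 2 or 3. FTL, which fell as reported, then stood at values near 0 (7.96e-05, 0.019 and 0.0051) without 0.24 mg/mL replicate 3 and 0.048 mg/mL replicates 1 and 2. For the difference between the sources, 0 calls became 1 with total-count scaling, 508 with no filter, 1191 with only the groups compared, 2 with the block, 1 with trends removed, 5 with both, 388 in DESeq2 and 0 to 298 without 1 library. For 0.24 mg/mL against the blank, 0 became 9 with no filter, 2 with trends removed, 2 with the block as well and 0 to 1 without 1 library. For 0.048 mg/mL against the blank, 3216 became 1976 with only the groups compared, 104 with trends removed, 140 with the block as well and 1 to 5726 without 1 library. HCC+ EVs at the same doses gave 0 calls under every setting run, and 1.2 mg/mL against the blank stayed within 1.5 times its count. RLE size factors kept 1653 of the 1704 calls and total-count scaling 1411. The cause of these differences was not tested, and the fits without 1 library also held fewer samples. In genes with high counts, 31 of 50 simulated 1.3-fold changes were recovered, in counts that carried no GC trend. The simulation varied neither depth nor the number of libraries, so the part of either was not tested.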

Other observations

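With GC content and length trends removed, 107 genes differed between the doses, and 38 of them had not passed before. All genes in this part were chosen after their values were seen. JUND, a subunit of the AP-1 factor, was at 0.05 in the reported fit and at 0.33 with the trends removed (adjusted p = 0.000919 in edgeR's test). SNRPG, a core protein of the spliceosome, went from -0.19 to -0.35, and COPS5, the catalytic subunit of the COP9 signalosome, from -0.09 to -0.30. The RNA-binding protein genes HNRNPA3, HNRNPC and HNRNPU were at 0.03, -0.002 and 0.03 in the reported fit and at -0.21, -0.20 and -0.20 with the trends removed. These 3 of 22 HNRNP genes fell there, beside 71 of 14344 protein-coding genes. The median over the 22 was 0.03 as reported and -0.12 with the trends removed, and their median GC content was 42.6%. With the trends removed, 0 of the 22 passed without 0.24 mg/mL replicate 3 or 0.048 mg/mL replicate 1 or 2. TIMP2, an inhibitor of matrix proteases, and ST3GAL6, a sialyltransferase, passed in both fits, at 0.25 and 0.54 as reported and 0.35 and 0.41 with the trends removed. NUDT3, which hydrolyses inositol pyrophosphates, was at -0.54 and -0.63, and the thioredoxin-like TXNDC17 at -0.31 and -0.39.

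With 1 library also left out, trend removal left 4 genes without 0.24 mg/mL replicate 3, 6 without 0.048 mg/mL replicate 1 and 16 without 0.048 mg/mL replicate 2, so single calls of this kind depend on those libraries. CDK2AP1 and TFRC passed in all 6 of these fits, at 0.52 to 0.58 and at 0.29 to 0.33.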
